A study of Mus musculus with 6 samples.

Results

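Inhbb, Bambi, Ltbp4 and Eng are 4 genes whose products act outside the cell or at its membrane to set how much TGF-beta, activin or BMP signal a cell receives. They were taken by symbol from the authors' deposited table of the depot comparison, which lists only probe sets at an unadjusted paired p-value below 0.05. In that deposited table by the authors their p-values, the values that admitted them, lay between 8.33e-05 (Eng) and 0.0237 (Inhbb). They are 4 of the 3181 genes that had a name here, and each had 1 probe set. The depot difference of these genes, and how evenly it ran over the pool pairs, is therefore what brought them into view. Both are given below as a description with no test.

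The cells were adipose stromal cells, the fibroblast-like precursor cells of fat, from the perigonadal depot (visceral fat beside the gonads) or the subcutaneous depot of male mice. They were sorted magnetically, straight from digested tissue and without culture, for the surface protein Sca1 and against CD45 (leukocytes) and CD31 (endothelium). The perigonadal group and the subcutaneous group held 3 pools each, with 1 Affymetrix array a pool, and no treatment or genetic change is named for either. The design text gives 6 animals and independent pools, without saying whether that number is per pool. It also does not say whether pools of the same number share animals, and pool pairs here follow the authors' paired test. The labels used here name neither strain nor age, and each value is a pool average.

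The TGF-beta family comprises TGF-betas, activins and BMPs, secreted dimers that bring type I and type II receptor kinases together and so activate SMAD transcription factors. Inhbb encodes the beta-B subunit, which pairs with itself to form activin B and with the inhibin alpha subunit to form inhibin B. Bambi encodes a membrane protein that resembles a type I receptor but lacks the kinase, and dampens the signal. Ltbp4 encodes a matrix protein that holds latent TGF-beta on microfibrils and takes part in elastic fibre assembly. Eng encodes endoglin (CD105), an accessory receptor best known from endothelium and also used as a surface marker of cultured mesenchymal stromal cells. In fat, activin and TGF-beta signals are known to restrain adipocyte differentiation, while several BMPs favour it.

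The start regions of these genes are shown because all of the genes were brighter in the same depot. RefSeq (GRCm38.p6) start windows were at hand for 3 of the 4 genes, and Bambi had no entry. Each window of 300 bases runs 5′ to 3′ on the strand of the gene, with 250 bases before the start and 50 from it on. Capitals mark the SMAD-binding letters CAGAC (either strand, so also GTCTG) and the GC-rich letters GGCGCC.
Inhbb, chr1:119422199-119422498, minus strand: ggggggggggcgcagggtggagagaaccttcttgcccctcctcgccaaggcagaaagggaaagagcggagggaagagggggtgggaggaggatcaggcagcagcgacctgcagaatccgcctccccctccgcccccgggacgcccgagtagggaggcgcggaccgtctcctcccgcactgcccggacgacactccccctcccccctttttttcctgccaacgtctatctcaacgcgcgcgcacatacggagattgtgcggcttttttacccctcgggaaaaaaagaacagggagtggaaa
Ltbp4, upstream start, chr7:27337563-27337862, minus strand: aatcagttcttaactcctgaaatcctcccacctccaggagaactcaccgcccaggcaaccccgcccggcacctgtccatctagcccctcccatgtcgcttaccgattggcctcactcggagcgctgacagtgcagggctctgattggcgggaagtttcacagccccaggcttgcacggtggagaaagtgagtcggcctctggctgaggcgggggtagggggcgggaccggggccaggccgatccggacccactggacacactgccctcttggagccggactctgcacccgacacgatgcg
Ltbp4, downstream start, chr7:27333614-27333913, minus strand: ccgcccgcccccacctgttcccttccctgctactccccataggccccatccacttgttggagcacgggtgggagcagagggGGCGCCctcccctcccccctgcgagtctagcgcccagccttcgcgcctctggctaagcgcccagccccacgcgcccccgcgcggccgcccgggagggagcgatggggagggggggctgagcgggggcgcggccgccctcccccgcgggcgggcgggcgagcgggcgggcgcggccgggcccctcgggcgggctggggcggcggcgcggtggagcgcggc
Eng, chr2:32646345-32646644, plus strand: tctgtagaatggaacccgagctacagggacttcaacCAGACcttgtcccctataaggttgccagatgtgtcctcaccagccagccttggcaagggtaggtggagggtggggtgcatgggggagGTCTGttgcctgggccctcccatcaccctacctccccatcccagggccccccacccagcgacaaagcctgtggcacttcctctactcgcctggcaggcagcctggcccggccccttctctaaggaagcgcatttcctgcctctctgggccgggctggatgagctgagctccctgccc

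The windows had little in common in these letters. Eng held CAGAC 2 times, first at base -214 and, on the other strand, at base -127 from the start. Such a match occurs in 49.6% of the 32851 RefSeq start windows of the same length. The downstream Ltbp4 start held GGCGCC once, at base -169, and 11.9% of all windows hold it. Another annotated Ltbp4 window overlaps the downstream one and contains the same match. The palindrome GTCTAGAC, found in 0.213% of all windows, and the AP-1 letters TGANTCA, found in 7.81%, were in none of the windows of these genes. The windows differed in composition: G+C content was 64.3% for Inhbb, 64.3% and 81.3% for the upstream and downstream Ltbp4 starts and 63.3% for Eng, against a median of 52.7% over all windows. CpG pairs numbered 23 for Inhbb, 19 and 39 for the Ltbp4 starts and 6 for Eng, against a median of 7.0. The matches describe these letters only.

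All 4 genes were brighter in every perigonadal pool than in any subcutaneous pool. Ltbp4 stood furthest apart and Eng least. Over all 23531 probe sets, 10.7% had all perigonadal pools above all subcutaneous pools and 4.05% passed the test as higher. Since the genes were picked from this contrast, nothing is read from their count. The values are the authors' normalized intensities on a linear scale, and log2 differences are of log2(intensity + 1), perigonadal minus subcutaneous. The arrays measure pools of many cells, so more cells with a transcript and more transcript per cell cannot be told apart.

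**Figure D1:**
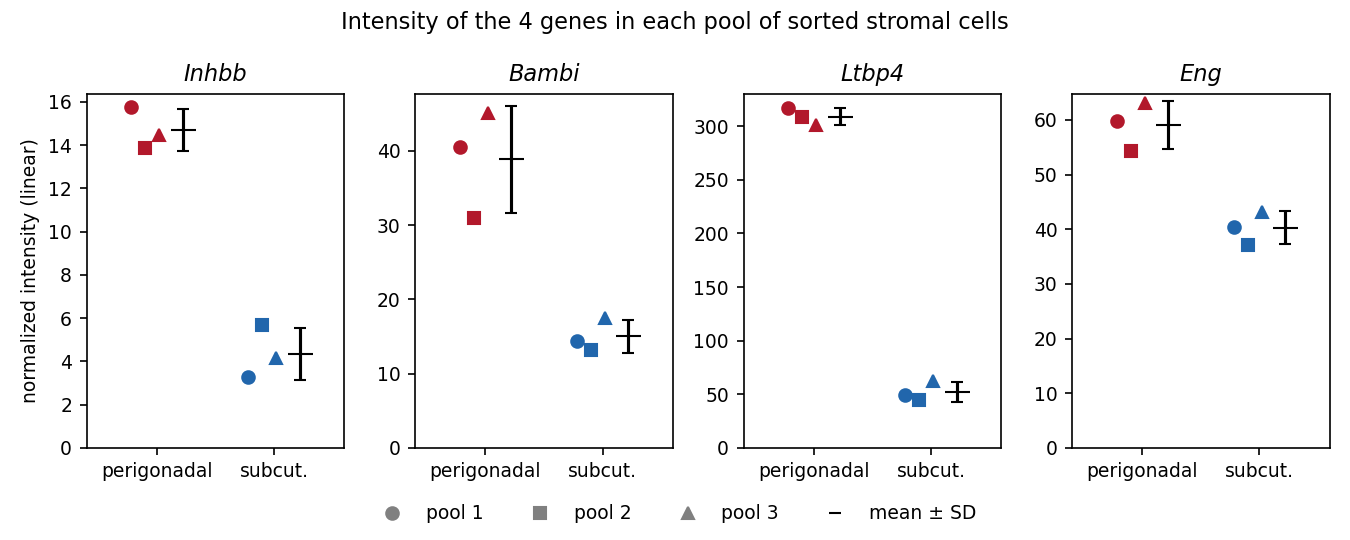
Normalized intensity (linear axis from 0) of Inhbb, Bambi, Ltbp4 and Eng in perigonadal pools (red, left) and subcutaneous pools (blue, right), with 1 symbol per pool number and the mean ± SD of 3 pools in black. The depots do not overlap for any of the genes, and the gap is widest for Ltbp4 and narrowest for Eng.

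The ligand gene comes first. Inhbb (transcript cluster 10357155, chromosome 1 in the authors' table) had intensities of 15.76, 13.88 and 14.46 in perigonadal pools 1 to 3, against 3.28, 5.66 and 4.14 in subcutaneous pools 1 to 3. All subcutaneous values lay below their arrays' median intensities (6.44 to 6.92) and all perigonadal values above theirs (6.51 to 6.96). The means were 14.7 ± 0.963 in perigonadal and 4.36 ± 1.21 in subcutaneous pools (SD, n = 3 each), a ratio of 3.37. The log2 difference was 1.57 ± 0.15 (SE of the fit), and it was 1.97, 1.16 and 1.59 in pool pairs 1, 2 and 3. The spread lay mainly in the subcutaneous pools, whose coefficient of variation was 27.6% against 6.55% in the perigonadal pools. Subcutaneous pool 2, the brightest of its depot, set the small difference of its pair. The size of the Inhbb difference also rests on the pseudocount: it was 0.59 with a pseudocount of 16.

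Bambi, the decoy receptor (10453604), had intensities of 40.49, 30.99 and 45.11 in perigonadal pools, against 14.41, 13.22 and 17.51 in subcutaneous pools. In both depots pool 2 was the dimmest and pool 3 the brightest. The means were 38.9 ± 7.20 in perigonadal and 15.1 ± 2.22 in subcutaneous pools (SD, n = 3 each), a ratio of 2.58. Because the pools of 1 number moved alike, the pair differences of 1.43, 1.17 and 1.32 were closer together than the pools themselves, whose SD on the log2 scale was 0.271 in perigonadal and 0.195 in subcutaneous pools. The fitted log2 difference was 1.31 ± 0.09 (SE), and it was 0.82 with a pseudocount of 16.

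Ltbp4, which tethers latent TGF-beta (10561212), had intensities of 316.77, 308.36 and 301.05 in perigonadal pools, against 49.38, 44.33 and 62.27 in subcutaneous pools. The lowest perigonadal pool was 4.83 times the highest subcutaneous pool. The means were 309 ± 7.87 in perigonadal and 52.0 ± 9.25 in subcutaneous pools (SD, n = 3 each), a ratio of 5.94. Its log2 difference of 2.56 ± 0.12 (SE) was number 31 of all probe sets, counted from the highest. Perigonadal pools were unusually even, with a coefficient of variation of 2.55%, against 17.8% in subcutaneous pools. Subcutaneous pool 3 was the brightest of its depot and gave the smallest pair difference, 2.26, beside 2.66 and 2.77 in pairs 1 and 2.

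Eng, the accessory receptor (10471486, chromosome 2 in the authors' table), had intensities of 59.81, 54.41 and 63.14 in perigonadal pools, against 40.47, 37.16 and 43.22 in subcutaneous pools. The depots did not overlap, but the lowest perigonadal pool was only 1.26 times the highest subcutaneous pool. The means were 59.1 ± 4.41 in perigonadal and 40.3 ± 3.03 in subcutaneous pools (SD, n = 3 each), a ratio of 1.47 and a log2 difference of 0.54 ± 0.08 (SE). Its pair differences were nearly equal, at 0.55, 0.54 and 0.54, with an SD of 0.00864. Such evenness lowers a paired p-value, so it is part of what admitted Eng. Within each depot the SD on the log2 scale was 0.107. As for Bambi, pool 2 was the dimmest and pool 3 the brightest in both depots.

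The 4 genes covered a wide range of effect sizes and of spread. Of all probe sets, 0.127% had a larger difference than Ltbp4, 0.54% than Inhbb, 0.761% than Bambi and 3.0% than Eng. The median SD of a probe set on the log2 scale was 0.123 among perigonadal and 0.11 among subcutaneous pools. Against that, Bambi was more variable in both depots, at 0.271 and 0.195. Inhbb and Ltbp4 were less variable than the median in perigonadal pools, at 0.0876 and 0.0366, and more variable in subcutaneous pools, at 0.321 and 0.246.

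**Figure D2:**
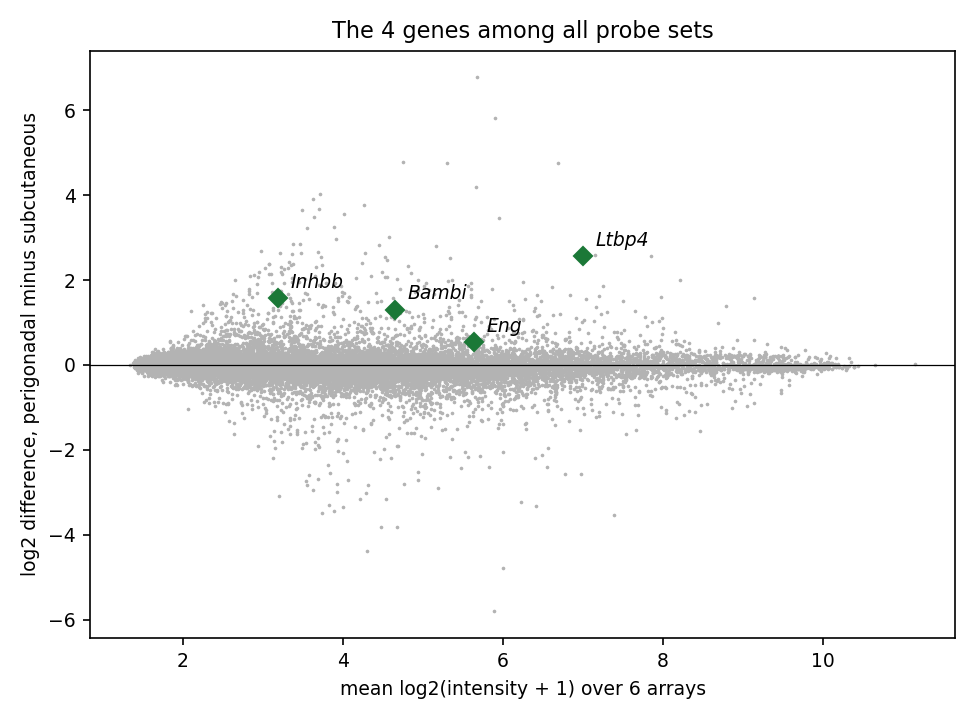
Each grey point is 1 of 23531 probe sets, with the mean log2(intensity + 1) over 6 arrays on the horizontal axis and the log2 difference, perigonadal minus subcutaneous, on the vertical axis. Ltbp4 (2.56) lies at the upper edge for its brightness, Inhbb (1.57) and Bambi (1.31) lie above the main cloud, and Eng (0.54) lies near its upper border.

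Profiles over the 6 pools were compared by the root mean square distance of log2(intensity + 1) after each gene was centred on its own mean. The search ran over the other 3180 named genes, all selected by the authors' test for a depot difference, so closeness in the depot step is built in. Among the nearest to Inhbb was the collagen VI chain gene Col6a6, at a distance of 0.151, against a median of 0.895 over the named genes. Col6a6 had intensities of 135.54, 133.44 and 128.13 in perigonadal pools and 42.8, 47.2 and 42.69 in subcutaneous pools, and subcutaneous pool 2 was the brightest of its depot, as for Inhbb. The aggrecanase gene Adamts4 was at 0.167.

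Bambi had the nearest profile among the 4 genes' neighbours, Pla2g7, which encodes the secreted platelet-activating factor acetylhydrolase, at a distance of 0.030 (median 0.763). Pla2g7 was dim, at 11.05, 8.35 and 11.82 in perigonadal pools and 3.29, 3.12 and 4.37 in subcutaneous pools, and it was likewise lowest in pool 2 and highest in pool 3 of each depot. The glutathione transferase Gstm5 and the aldehyde oxidase Aox3 were each at 0.115. Nearest to Ltbp4 was Thbs1, thrombospondin 1, a matrix protein that can release TGF-beta from its latent complex, at 0.109 (median 1.37). Thbs1 had intensities of 330.68, 381.24 and 328.72 in perigonadal pools and 48.76, 52.19 and 72.25 in subcutaneous pools, with subcutaneous pool 3 the brightest of its depot, as for Ltbp4. The transferrin gene Trf was at 0.162 and the guidance ligand Slit2 at 0.168.

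Nearest to Eng was the adenylate kinase gene Ak1 at 0.0384, and the glycine transporter gene Slc6a9 was at 0.0552 (median 0.394). Among the 4 genes themselves, Inhbb and Bambi were closest, at 0.316, and Ltbp4 and Eng furthest apart, at 1.02. Each of the 4 was thus nearer to its listed genes than to the other members.

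**Figure D3:**
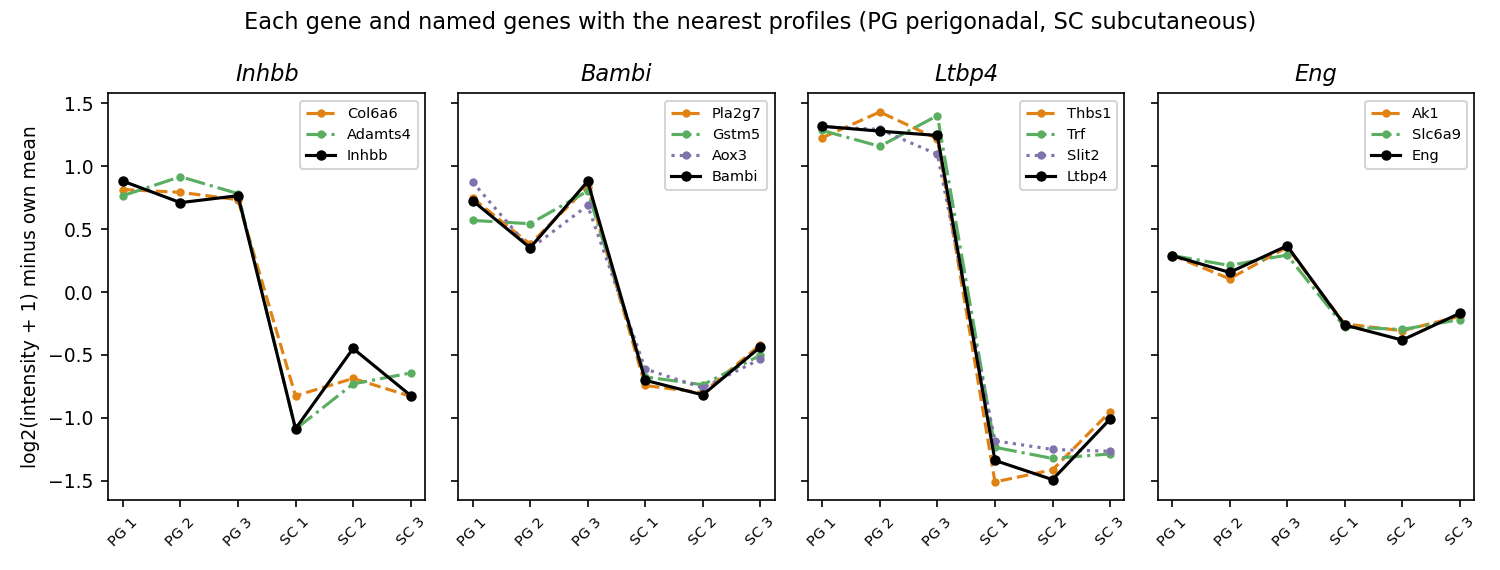
Centred log2(intensity + 1) of each of the 4 genes (black) and of the named genes given in the text as nearest to it (coloured, broken lines) in perigonadal (PG) pools 1 to 3 and subcutaneous (SC) pools 1 to 3. The lines share the depot step by selection, and within depots Bambi and Pla2g7 nearly coincide (distance 0.030), while Inhbb and Col6a6 are both brightest in subcutaneous pool 2 among the pools of that depot.

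The rest of the pathway was read through 7 lists by role. Of their 136 genes other than the 4 described, 46 had a name. In limma at an adjusted p below 0.05, 16 of the 46 were higher in perigonadal pools, 22 were lower and 8 did not pass. Names exist only where the authors' test had picked the probe set from these same pools, so the counts lean towards calls. Over all probe sets 4.05% were higher and 5.47% lower, and over the 3181 named genes 20.9% and 31.4%. The median log2 difference was -0.30 over the 46 genes, -0.17 over all named genes and -0.01 over all probe sets. By list, 5 of 7 named latency genes (of 22 listed) were higher. Lower were 4 of 6 named BMP and GDF ligands (of 16), 5 of 8 intracellular regulators (of 25) and 2 of 4 receptors (of 18).

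**Figure D4:**
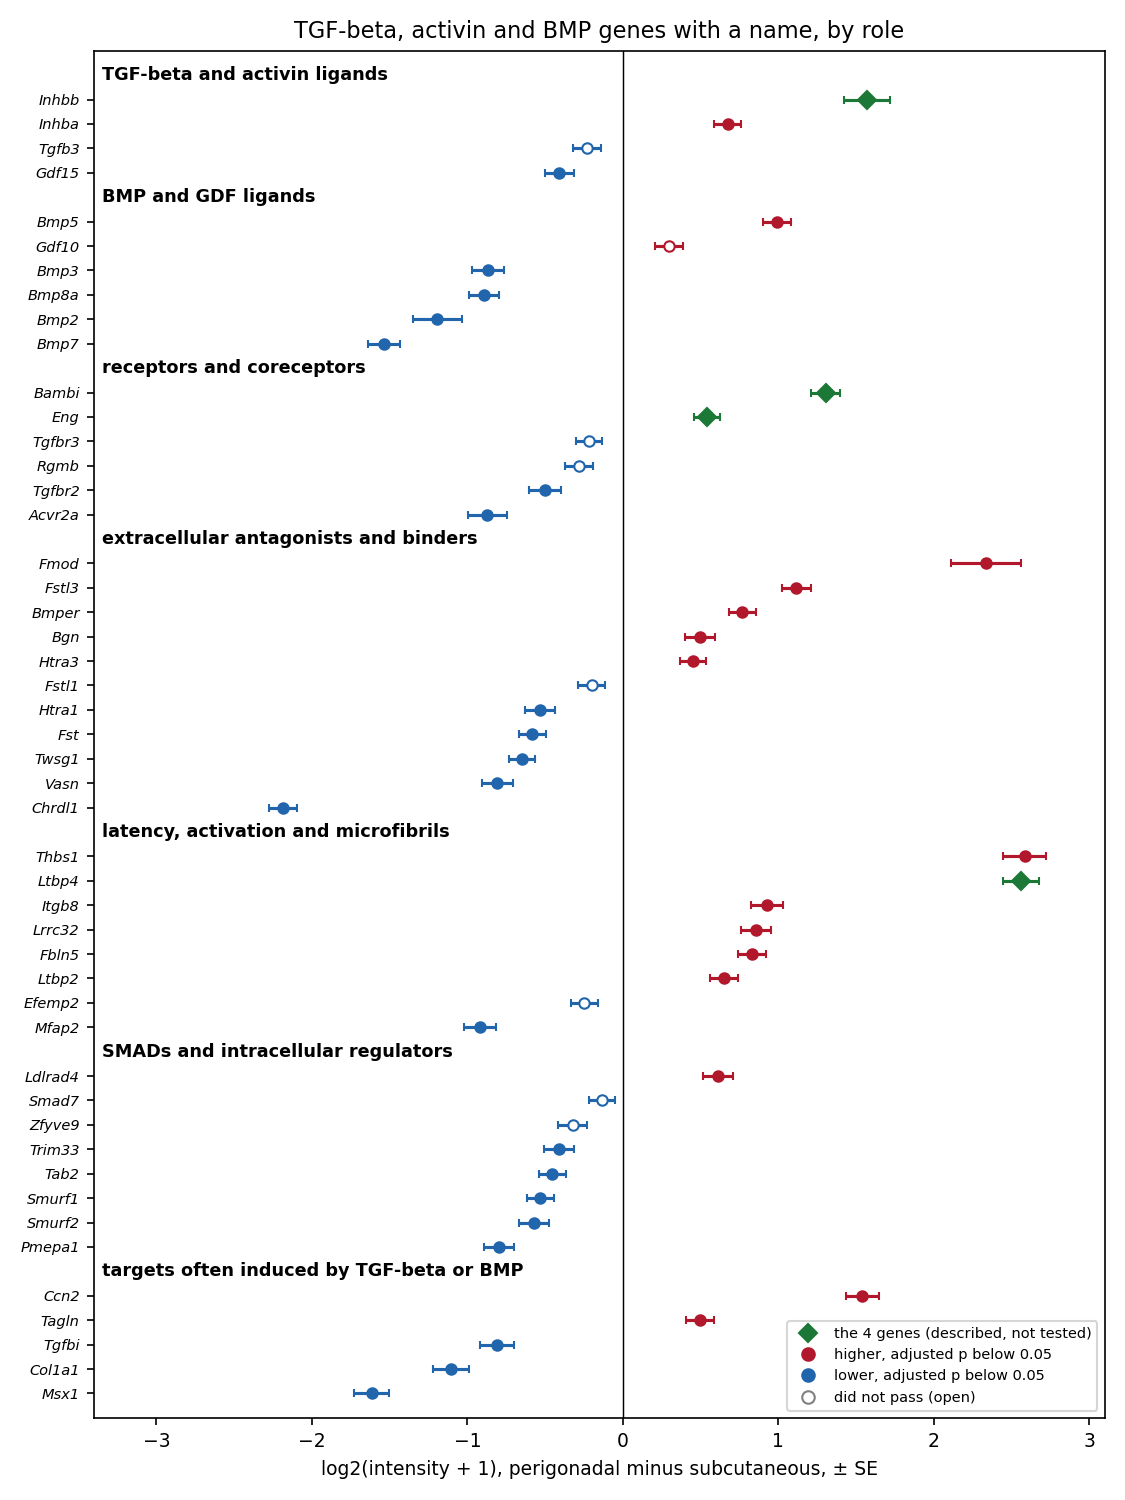
Log2 difference ± SE, perigonadal minus subcutaneous, of named genes of the 7 lists, grouped by role. Green diamonds are Inhbb, Bambi, Eng and Ltbp4, red and blue circles are genes called higher and lower in limma, and open circles are the 8 that did not pass. Latency genes lie mostly to the right of 0 and BMP ligands mostly to its left.

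Among the 3 other named TGF-beta and activin ligands, 1 was higher and 1 was lower. Inhba, which encodes the subunit of activin A, had intensities of 9.30, 11.82 and 12.58 in perigonadal pools, against 5.69, 6.78 and 7.47 in subcutaneous pools. Its depots did not overlap, as held for 45 of the 46 named pathway genes. The log2 difference of Inhba was 0.67 ± 0.09 (adjusted p = 0.00276), or 0.26 with a pseudocount of 16. Gdf15, a stress-induced family member, was lower with a log2 difference of -0.41 (adjusted p = 0.0371). That call was lost without pool pair 1 (-0.33, adjusted p = 0.193), without pair 2 (-0.44, adjusted p = 0.113) and with a pseudocount of 16 (-0.14, adjusted p = 0.0927). Tgfb3 had -0.23 (adjusted p = 0.179).

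BMP ligands mostly ran the other way. Of 6 named BMP and GDF ligands 4 were lower and 1 was higher. Bmp7, which favours brown fat formation in mice, had intensities of 18.27, 20.27 and 25.5 in perigonadal pools, against 57.12, 68.42 and 64.53 in subcutaneous pools, a log2 difference of -1.54 ± 0.10 (adjusted p = 0.000152). Bmp2 had intensities of 15.51, 22.18 and 13.57 in perigonadal pools, against 33.7, 40.16 and 45.58 in subcutaneous pools, a log2 difference of -1.19 ± 0.16 (adjusted p = 0.0033). Bmp8a and Bmp3 were dimmer, and lower by 0.89 and 0.87 on the log2 scale. Bmp8a was at 4.23, 3.51 and 3.85 in perigonadal pools, below the array medians, against 8.49, 8.32 and 7.28 in subcutaneous pools. Bmp3 was at 2.87, 2.68 and 3.57 in perigonadal pools and 6.78, 6.06 and 6.19 in subcutaneous pools, below the array median in every pool. Bmp5 was the exception, at 8.69, 8.38 and 6.77 in perigonadal pools against 3.54, 3.65 and 3.26 in subcutaneous pools, a log2 difference of 0.99 ± 0.09 (adjusted p = 0.000603). Gdf10 had 0.30 (adjusted p = 0.0925), and it passed with a pseudocount of 16 (0.28, adjusted p = 0.0455). With a pseudocount of 16 the calls held but the differences were smaller, at 0.30 for Bmp5, -0.76 for Bmp2, -0.27 for Bmp8a and -0.23 for Bmp3.

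No named receptor beside Bambi and Eng was higher. Acvr2a, a type II receptor for activins, had intensities of 43.03, 34.99 and 33.66 in perigonadal pools, against 61.62, 73.43 and 71.15 in subcutaneous pools, a log2 difference of -0.87 ± 0.13 (adjusted p = 0.00529). Tgfbr2, the type II receptor for TGF-beta, was at 158.34, 152.19 and 163.61 in perigonadal pools and 210.0, 253.97 and 211.32 in subcutaneous pools, a log2 difference of -0.50 ± 0.10 (adjusted p = 0.0242). The Tgfbr2 call was lost without pool pair 1 (-0.55, adjusted p = 0.0951), without pair 2 (-0.39, adjusted p = 0.149) and with a pseudocount of 16 (-0.47, adjusted p = 0.0573). Betaglycan (Tgfbr3), an accessory receptor like endoglin, had -0.22 (adjusted p = 0.186), and the BMP coreceptor gene Rgmb had -0.28 (adjusted p = 0.113).

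Extracellular binders split, with 5 higher and 6 lower of 12 named. The follistatins bind and block activins, and their genes went in opposite directions. Fstl3 had intensities of 27.65, 27.02 and 28.43 in perigonadal pools, against 12.35, 10.65 and 13.9 in subcutaneous pools, a log2 difference of 1.12 ± 0.09 (adjusted p = 0.000407). Fst had 103.97, 94.95 and 105.31 in perigonadal pools, against 144.16, 148.09 and 164.94 in subcutaneous pools, a log2 difference of -0.58 ± 0.09 (adjusted p = 0.00668). The small leucine-rich proteoglycan gene Fmod, whose product can bind TGF-beta, was higher by 2.34 ± 0.22 on the log2 scale (adjusted p = 0.00073). With a pseudocount of 16 the difference was 1.47 for Fmod and 0.63 for Fstl3.

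Among BMP antagonists, Chrdl1 had intensities of 36.85, 36.24 and 43.22 in perigonadal pools, against 186.42, 169.65 and 182.94 in subcutaneous pools, a log2 difference of -2.19 ± 0.09 (adjusted p = 1.99e-05). Vasn, whose product traps TGF-beta, was lower with -0.81 ± 0.10 (adjusted p = 0.00225). Bmper, a modulator of BMP, was higher by 0.77 ± 0.09 (adjusted p = 0.00151). Twsg1 was lower with -0.65 (adjusted p = 0.00302), and Fstl1 had -0.20 (adjusted p = 0.238). The calls of Bgn, Htra1 and Htra3 (log2 differences of 0.50, -0.53 and 0.45) were each lost without pool pair 1 (0.53, -0.48 and 0.47) and without pair 2 (0.41, -0.51 and 0.45).

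The group to which Ltbp4 belongs, latency, activation and microfibrils, had 7 other named genes of 22 listed. Of the 7, 5 were higher and 1 was lower, with a median log2 difference of 0.83, and the unnamed genes were not read. Thbs1, given above, was higher by 2.58 ± 0.14 (adjusted p = 5.16e-05). Itgb8, a subunit of an integrin that activates latent TGF-beta, had intensities of 10.24, 7.56 and 8.48 in perigonadal pools, against 4.35, 4.25 and 3.70 in subcutaneous pools, a log2 difference of 0.93 ± 0.10 (adjusted p = 0.00151). Lrrc32, which encodes the cell-surface anchor GARP for latent TGF-beta, was at 27.85, 34.6 and 36.43 in perigonadal pools and 15.1, 16.42 and 22.03 in subcutaneous pools, a log2 difference of 0.86 ± 0.10 (adjusted p = 0.0017). These are genes for the capture and release of latent TGF-beta, as Ltbp4 is.

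Fbln5, which encodes an elastic fibre protein that binds LTBP4, was at 243.62, 244.0 and 240.36 in perigonadal pools and 124.33, 143.92 and 140.34 in subcutaneous pools, a log2 difference of 0.83 ± 0.09 (adjusted p = 0.00143). Ltbp2 was dim and higher by 0.65 ± 0.09 (adjusted p = 0.00403). The microfibril gene Mfap2 was lower, at 104.01, 107.5 and 126.82 in perigonadal pools against 230.02, 194.19 and 216.15 in subcutaneous pools, a log2 difference of -0.92 ± 0.10 (adjusted p = 0.00158). Efemp2, a fibulin gene, had -0.25 (adjusted p = 0.143). With a pseudocount of 16 the differences of the dim genes were smaller, at 0.30 for Itgb8, 0.21 for Ltbp2 and 0.53 for Lrrc32. Elastic fibre and microfibril genes thus did not share 1 direction.

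Among 8 named SMADs and intracellular regulators, 5 were lower and 1 was higher. Pmepa1, a TGF-beta-induced gene whose product dampens SMAD signalling, had intensities of 50.48, 55.26 and 51.71 in perigonadal pools, against 83.38, 90.03 and 103.25 in subcutaneous pools, a log2 difference of -0.80 ± 0.10 (adjusted p = 0.00234). Its relative Ldlrad4 was higher by 0.61 ± 0.09 (adjusted p = 0.00705), or 0.35 with a pseudocount of 16. The ubiquitin ligase genes Smurf2 and Smurf1 had -0.57 and -0.53, Tab2 had -0.45 and Trim33 had -0.41. Those calls were lost without pool pair 1 (Smurf2 -0.62, Smurf1 -0.56, Tab2 -0.44 and Trim33 -0.48) and without pair 2 (-0.48, -0.49, -0.42 and -0.33). The Trim33 call was also lost without pair 3 (-0.42), with no pseudocount (-0.42), with a pseudocount of 16 (-0.28) and after quantile normalization (-0.32). Smad7, the inhibitory SMAD, had -0.13 (adjusted p = 0.438), and Zfyve9 had -0.32 (adjusted p = 0.082).

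Genes often induced by TGF-beta or BMP divided evenly, with 3 of 6 named higher and 3 lower. Ccn2, the connective tissue growth factor gene, was at 60.44, 72.5 and 91.38 in perigonadal pools and 23.92, 23.05 and 27.3 in subcutaneous pools, a log2 difference of 1.54 ± 0.11 (adjusted p = 0.000157). In contrast, the collagen chain gene Col1a1 had -1.11 ± 0.12 (adjusted p = 0.00113) and Tgfbi had -0.81 ± 0.11 (adjusted p = 0.00373).

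Msx1, a BMP target, was at 14.1, 13.45 and 10.46 in perigonadal pools and 44.99, 36.39 and 40.89 in subcutaneous pools, a log2 difference of -1.62 ± 0.11 (adjusted p = 0.000171), or -0.98 with a pseudocount of 16. Tagln, also a smooth muscle gene, was higher by 0.50 (adjusted p = 0.0124). The Tagln call was lost without pool pair 1 (0.55, adjusted p = 0.0557), without pair 2 (0.47, adjusted p = 0.0784) and with no replicate block (0.50, adjusted p = 0.0539), and the difference was 0.22 with a pseudocount of 16.

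Markers of the sorted cells and of other cell types give the setting for these values. Ly6a, the gene of the sort marker Sca1, was at 434.72, 522.79 and 480.15 in perigonadal pools and 509.93, 619.96 and 525.88 in subcutaneous pools (log2 difference -0.20, adjusted p = 0.231). Of 6 named stromal markers of 11 listed, 5 were lower in perigonadal pools, and their summed intensity was 2041 to 2278 in perigonadal and 3312 to 3520 in subcutaneous pools. The call of Pdgfrb (-0.47) was lost without any 1 of the pool pairs (-0.54, -0.51 and -0.37 without pairs 1, 2 and 3), with a pseudocount of 16 (-0.41) and after quantile normalization (-0.43), and that of Col3a1 (-0.58) without pair 1 (-0.50, adjusted p = 0.0712). Endothelial genes were read because Eng is best known from endothelium. Only 2 of 16 endothelial markers had a name, Ecscr and Tek, and both were lower in perigonadal pools, with a summed intensity of 93.38 to 100.3, against 168.9 to 200.9 in subcutaneous pools. Both have a name only because the authors' test picked them, and the part of endothelial cells in the Eng values was not tested.

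Mesothelial genes mark the cell layer covering visceral fat, and those with a name shared the depot direction of the 4 genes. No likeness within depots is meant by this. All 9 named of 15 listed were higher in perigonadal pools, beside 20.9% of all named genes. Their summed intensity was 329.5 to 367.9 in perigonadal and 51.05 to 63.92 in subcutaneous pools. A few bright genes made up most of the perigonadal sum. Others were dim, among them Krt7 at 8.83, 8.5 and 7.78 in perigonadal pools and 6.21, 4.89 and 5.36 in subcutaneous pools. The mesothelial marker Upk3b was at 17.64, 32.6 and 15.87 in perigonadal pools and, below the array medians, at 3.49, 3.89 and 3.26 in subcutaneous pools. The call of Krt7 was lost without pool pair 1 (0.58, adjusted p = 0.0612) and without pair 2 (0.46, adjusted p = 0.0841), and that of Gpm6a with a pseudocount of 16 (0.33, adjusted p = 0.0535). Of 6 named contractile and pericyte genes of 10 listed, 4 were higher and 2 lower, with summed intensities of 110.8 to 145.6 in perigonadal and 62.26 to 88.0 in subcutaneous pools. The 3 named Schwann genes of 7 listed were all lower, with sums of 18.35 to 20.67 against 50.8 to 61.42. Of 11 leukocyte markers only Fcer1g and Itgam had a name, and their summed intensity was 7.88 to 9.54 in perigonadal and 5.25 to 6.25 in subcutaneous pools. Plin4, the only named adipocyte marker of 7 listed, was at 4.77 to 6.03 in perigonadal and 12.75 to 18.72 in subcutaneous pools. The part of these cell types in the values of Inhbb, Bambi, Ltbp4 and Eng was not tested.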

How the data were processed

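RNA from 3 perigonadal and 3 subcutaneous pools was hybridised to 1 array each. The deposited value table holds the authors' normalized intensity, linear scale, for 23531 probe sets. The submitters' processing notes name Partek, and the sources used here give no background correction, normalization method or genome build. The authors' comparison table gives, per the file headers, mean log2 values and their difference, the ratio, a signed fold score, a t score and an unadjusted p-value for 3694 probe sets, of which 3541 are in the value table (15.0% of it). Only these had names, here through RefSeq GRCm38.p6 accessions (3417), symbols (219) or the file's own symbol (58). Of several probe sets of a gene the brightest was used.

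Differences of log2(intensity + 1), perigonadal minus subcutaneous, were fitted with limma 3.58.1 in R 4.3.3 (lmFit, eBayes) over all probe sets, with the pool number as a block as in the authors' paired test, and adjusted by Benjamini-Hochberg at 0.05. The fit left 2 residual degrees of freedom per probe set, and eBayes added 5.24 prior degrees of freedom drawn from all probe sets. An SE or p-value of the fit thus mixes a gene's own spread with that of other probe sets, and differs from its pair spread alone. With 3 arrays a depot, the number of arrays limits the precision, and a p-value covers the spread of these pools only. The fit was tested on simulated data.

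The 4 genes, the lists and the naming rule were chosen with earlier results of these data known. The rule named the 4 genes in full, up to 6 called genes of each list by size of difference, and the 3 nearest profiles of each of the 4. The other named list members (among them Fst) and markers were added after their values were seen. A few genes that the rule selects are counted but not reported by name or drawn. Alternatives were no block, other pseudocounts, a filter on dim probe sets, quantile normalization, the methods' t-test and leaving out each pool pair.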

Additional observations from a re-analysis of the deposited data

How the results depend on the processing

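Inhbb, Bambi, Ltbp4 and Eng were brighter in perigonadal pools under the alternatives run for them: no block, other pseudocounts, quantile normalization and leaving out each pool pair. With a pseudocount of 16, which shrinks differences of dim probe sets, their log2 differences were 0.59, 0.82, 2.26 and 0.42. Eng, whose pair differences hardly varied, was at 0.55 with no pseudocount and 0.62 after quantile normalization. Leaving out 1 pool pair gave 1.37 to 1.78 for Inhbb, 1.24 to 1.37 for Bambi, 2.46 to 2.71 for Ltbp4 and 0.537 to 0.545 for Eng. Of the 46 other pathway genes, 13 to 16 were higher and 15 to 21 lower without 1 pair. Calls lost were 10 without pair 1, 10 without pair 2 and 1 without pair 3. With a pseudocount of 16, 3 calls were lost and 3 were gained. The gained ones were Gdf10 (0.28, limma adjusted p = 0.0455), Tgfbr3 (-0.21, adjusted p = 0.0223) and Efemp2 (-0.23, adjusted p = 0.0378). The filter on dim probe sets, at the median mean intensity, kept 40 of the 46 genes, and their calls were the same. Of these, 13 were higher and 19 lower. Bmp3, Bmp5, Bmp8a, Itgb8, Ltbp2 and Gdf15 fell below that filter, so part of the BMP and latency counts rests on dim genes.

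Over all probe sets, 952 were higher and 1286 lower, so 42.5% of calls were higher. After quantile normalization the counts were 967 and 980, with 49.7% higher. With the filter on dim probe sets they were 821 and 1284. Without pair 1 the counts were 529 and 660, without pair 2 they were 660 and 716, and without pair 3 they were 1068 and 1408. The methods' t-test called 0 higher and 0 lower after Benjamini-Hochberg, and 1524 and 2017 at an unadjusted p below 0.05. After subtraction of the depot mean, perigonadal pools 1, 2 and 3 correlated with the subcutaneous pool of the same number at 0.166, 0.156 and 0.0527 (Pearson, across probe sets). Pools of different numbers correlated between depots at -0.172 to 0.02. The pairing was thus weak, though each pool was closest to the one of its own number. With no replicate block the counts were 943 and 1316, the differences of the 4 genes had the same values, and of the 46 pathway genes only Tagln lost its call.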

Other observations

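The gene with the profile nearest to that of Eng, Ak1, is also its neighbour: RefSeq (GRCm38.p6) lists it as the adjacent protein-coding gene. Ak1 had intensities of 23.56, 20.56 and 24.64 in perigonadal pools, against 15.81, 15.19 and 16.53 in subcutaneous pools, a log2 difference of 0.50 ± 0.09 (limma adjusted p = 0.0114). The call was lost without pool pair 1 (0.48, adjusted p = 0.0846), and the difference was 0.29 with a pseudocount of 16. Of the 16 protein-coding genes nearest in gene order to Inhbb, Bambi, Ltbp4 and Eng (2 on either side of each), only Ak1 and Crem, a cAMP-responsive factor gene near Bambi, had a name. Over all probe sets 15.0% had a name, so nothing is read from that count. Crem was higher in perigonadal pools by 0.86 ± 0.10 on the log2 scale (adjusted p = 0.00225). The neighbours were looked up after these values were seen.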
